A study of Homo sapiens with 6 samples.

Results

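The transcription factors and effectors of the integrated stress response were examined as a set of 10 genes, chosen by symbol from the 58735 genes of the deposited table: ATF4, ATF3, ATF5, DDIT3, CHAC1, TRIB3, CEBPB, CEBPG, PPP1R15A and NUPR1. Their mRNA levels were compared in HT1080, an established human fibrosarcoma cell line, between 3 libraries of cells in which GPR56 had been knocked out with CRISPR-Cas9 (KO) and 3 libraries of wild-type cells (WT). GPR56, approved symbol ADGRG1, is an adhesion G protein-coupled receptor. The descriptions of both genotypes carry the name of the solvent DMSO, with no dose or time, and both were grown in DMEM with fetal bovine serum. The labels do not say how many KO clones were used or whether the libraries of a genotype came from separate cultures, so p-values reflect no more than the spread among the 6 libraries, part of which may be technical.

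The integrated stress response is a signalling pathway in which different stresses converge on the phosphorylation of the translation factor eIF2-alpha. Phosphorylated eIF2-alpha slows general translation while it raises translation of a few mRNAs with upstream reading frames, among them those of ATF4 and ATF5, so that mRNA levels are only a partial view of these factors. ATF4 is a basic leucine zipper (bZIP) factor that pairs with C/EBP family proteins and induces genes for amino acid supply, further transcription factors such as DDIT3 (CHOP), and feedback regulators such as PPP1R15A (GADD34), which brings a phosphatase back to eIF2-alpha. In ferroptosis, the iron-dependent death by oxidised lipids that the series is about, CHAC1 is a widely used marker. Its product degrades glutathione.

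The promoters of the set were searched for the letters that a C/EBP-ATF pair is known to bind, because they are the site through which ATF4 reaches its targets. RefSeq windows from 250 bases before to 50 bases after annotated starts on GRCh38.p14 were available for 9 of the 10 genes, NUPR1 having none in the table used. The composite site TGATGCAA, read on either strand (TTGCATCA on the other), was present in 2 of these 9 genes, CHAC1 and CEBPG, and in 1.08% of all 27305 genes with a window. Shares per gene depend on the number of windows, which was 1 to 3 for the 9 genes, with 1 for CHAC1 and 2 for CEBPG. Of all 35116 windows, 0.87% held the site. With the sixth letter free (TGATGNAA), the windows of 3 of 9 genes held a match, the added one being ATF3, against 4.46% of all genes. The cAMP response element TGACGTCA, a palindrome that ATF and CREB proteins bind, was present in 1 of 9 genes, PPP1R15A, and in 2.25% of all genes. The 30 bases around each match are shown on the plus strand, which is the strand of all 4 genes, with the matched letters in capitals.
CHAC1: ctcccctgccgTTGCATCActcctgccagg
CEBPG: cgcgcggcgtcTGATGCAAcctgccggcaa
ATF3: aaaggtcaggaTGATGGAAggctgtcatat
PPP1R15A: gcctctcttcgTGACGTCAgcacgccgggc
The CHAC1 stretch is chr15:40953251-40953280, with its match 209 bases before the RefSeq start and within a non-coding exon of a longer GENCODE 29 transcript. The CEBPG stretch, chr19:33374060-33374089, has its match 42 bases before the start and in an intron of a GENCODE 29 transcript. The stretches of ATF3, chr1:212565205-212565234, and PPP1R15A, chr19:48872352-48872381, lie outside the genes annotated in GENCODE 29, with matches 191 and 58 bases before the start. A match describes letters only, and no data on binding were used here. Letters outside the windows were not searched, so a gene without a match may still hold the site elsewhere.

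ADGRG1 itself was at 2.68, 2.54 and 2.58 FPKM in the KO libraries, against 6.61, 6.07 and 6.87 FPKM in the WT libraries (limma adjusted p = 6.24e-05). FPKM are reads scaled by gene length and library size, and 16955111 to 17276269 reads were recovered per KO library and 16410352 to 16461752 per WT library. Of 10 mesenchymal markers, 9 averaged at least 1 FPKM in both genotypes, and their summed level was 1772 to 1863 FPKM in KO and 1427 to 1463 FPKM in WT. The epithelial markers CDH1 and KRT14 and the leukocyte marker PTPRC were at 0 in all 6 libraries. The summed level of 6 epithelial markers was 0.901 to 1.005 FPKM in KO and 0.333 to 0.398 FPKM in WT, of 5 leukocyte markers 0.236 to 0.544 FPKM in KO and 0 to 0.156 FPKM in WT, of 3 endothelial markers 1.37 to 1.57 FPKM in KO and 0.289 to 0.379 FPKM in WT, and of 4 neuronal markers 0.789 to 1.09 FPKM in KO and 0.812 to 1.06 FPKM in WT. The libraries also differed in a trend on GC content. Spearman's rho across genes between a library's deviation from the mean and gene GC content was 0.46, 0.44 and 0.23 in KO and -0.40, -0.62 and -0.01 in WT. The part of the markers in the results was not tested. A correction for GC content and length changed some calls. The changes are given for the list genes that are named, but calls of genes not named here changed as well.

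All 10 genes of the set had a lower mean in KO than in WT. Of the 9 that passed the filter of a mean of at least 1 FPKM, 7 fell in KO at a limma adjusted p under 0.05 (ATF4, ATF5, DDIT3, ATF3, CEBPG, PPP1R15A and CHAC1), 0 rose, and TRIB3 and CEBPB did not pass the test. Over all 12000 genes tested, 43.4% were called, 22.4% lower and 21.0% higher in KO. The KO and WT libraries did not overlap for 9 of the 10, CEBPB being the exception, and for 28.3% of all tested genes every KO library lay below every WT library. The median log2 fold change of the 9 tested genes, KO minus WT on the log2(FPKM + 1) scale, was -0.72, against -0.01 for all tested genes. With the correction for GC content and length the 7 genes kept their calls, at log2 fold changes from -2.09 (CHAC1) to -0.46 (ATF4). In bulk RNA, fewer cells that express a gene and less RNA per cell cannot be told apart.

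**Figure D1:**
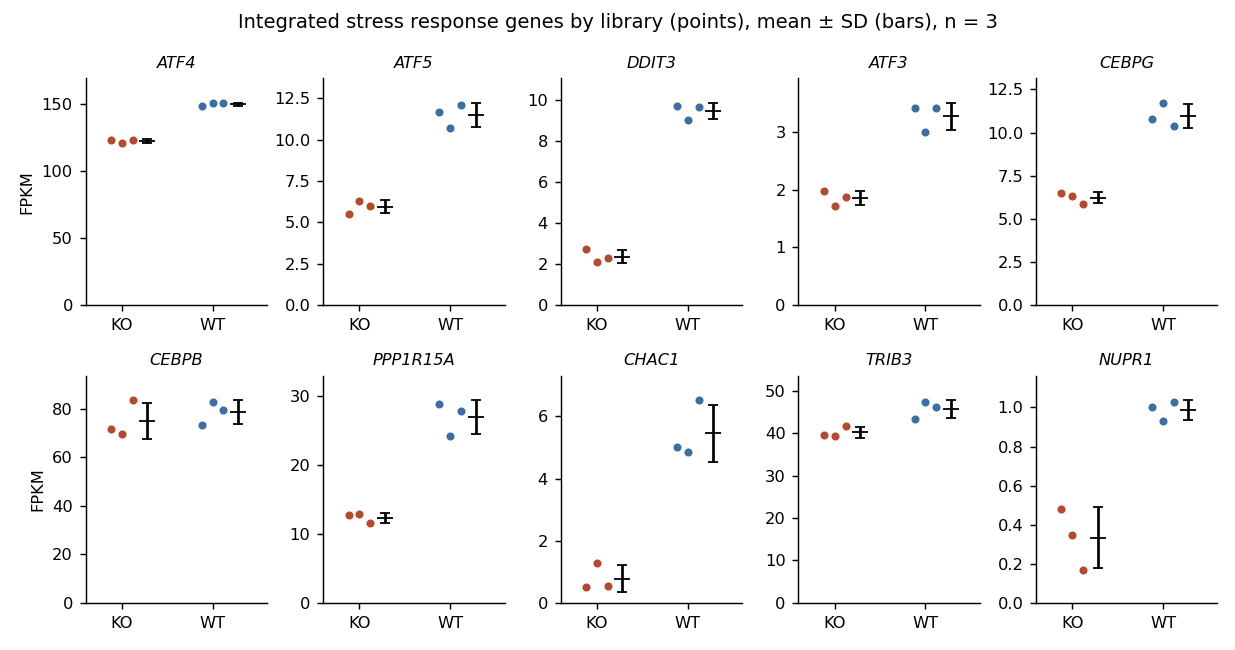
FPKM (vertical axis, from 0, a separate scale per gene) of the 10 integrated stress response genes in the 3 KO (left, red) and 3 WT (right, blue) libraries, with mean ± SD beside the points. The groups are apart for every gene except CEBPB, and the gap is widest relative to the level for CHAC1 and DDIT3.

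ATF4, the central factor of the pathway (ENSG00000128272, chr22:39519695-39522685, plus strand, GRCh38), was the most abundant of the set in both genotypes. It was at 123.2, 120.9 and 123.3 FPKM in KO, against 148.7, 150.7 and 150.8 FPKM in WT. The 3 libraries of each genotype lay close together and the groups were well apart. The means were 122.5 ± 1.4 FPKM in KO and 150.0 ± 1.2 FPKM in WT (SD, n = 3 each), a ratio of 0.816, and the log2 fold change was -0.29 ± 0.05 (SE), with an adjusted p of 0.00472 by limma. This was the smallest decrease among the 7 called genes, and 21.4% of all tested genes had a lower log2 fold change. It was called under all 15 alternative settings tried, with log2 fold changes between -0.46 and -0.28. ATF4 has processed pseudogenes that could take its reads, and they held few: ATF4P3 had 15 reads over the KO libraries and 16 over the WT libraries, ATF4P4 had 0 over the KO libraries and 2 over the WT libraries, and ATF4P1 and ATF4P2 had none. MIEF1, which ends 1563 bases upstream on the same strand, averaged 21.0 FPKM in KO and 20.8 FPKM in WT (limma adjusted p = 0.848).

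ATF5, a bZIP factor whose translation is controlled like that of ATF4 (ENSG00000169136, chr19:49928702-49933935, plus strand), had 5.51, 6.30 and 6.01 FPKM in KO, against 11.7, 10.7 and 12.1 FPKM in WT. Every KO library was well under the lowest WT library. The means were 5.94 ± 0.40 FPKM in KO and 11.5 ± 0.7 FPKM in WT, a ratio of 0.517. On the log2 scale the fold change was -0.85 ± 0.07 (SE), with a limma adjusted p of 0.000214. NUP62, a nuclear pore gene on the opposite strand, covers 21.2% of the exonic bases of ATF5, and no strand setting is given in the sources used here, so reads from the shared stretch cannot be assigned with certainty. NUP62 averaged 16.4 FPKM in KO and 19.7 FPKM in WT, with a log2 fold change of -0.25 (limma adjusted p = 0.01). IL4I1, also on the opposite strand, covers 2.5% of the exonic bases and averaged 1.15 FPKM in KO and 1.43 FPKM in WT, while MIR4751 and AC011452.1, which also overlap the locus, were at 0 in all libraries.

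DDIT3, which encodes CHOP, a C/EBP-like factor known for its part in death after prolonged stress (ENSG00000175197, chr12:57516588-57521737, minus strand), had the smallest adjusted p of the set. It was at 2.72, 2.09 and 2.30 FPKM in KO, from 61, 47 and 50 reads, against 9.72, 9.01 and 9.66 FPKM in WT, from 215, 196 and 210 reads. The highest KO library was far below the lowest WT library. The means were 2.37 ± 0.32 FPKM in KO and 9.46 ± 0.40 FPKM in WT, 3.99-fold lower in KO, and the log2 fold change was -1.64 ± 0.08 (SE), with an adjusted p of 2.63e-05 by limma. Of all tested genes, 0.417% had a lower log2 fold change. MARS, the methionyl-tRNA synthetase gene on the opposite strand, covers 27.2% of the exonic bases of DDIT3 (355 of 1307). With no strand setting given, reads from that shared stretch cannot be assigned with certainty. MARS was at 52.5, 56.4 and 55.7 FPKM in KO and 51.6, 53.6 and 56.1 FPKM in WT, groups that overlapped, with a log2 fold change of 0.03 (limma adjusted p = 0.734). MBD6, on the opposite strand over 4.4% of the exonic bases, averaged 8.34 FPKM in KO and 8.70 FPKM in WT (limma adjusted p = 0.703). On the same strand, AC022506.1 covers 8.0% of the exonic bases and was at 0, and the intronic MIR616 had 6 reads in all in KO and 11 in WT. MIR6758, 3838 bases away, was at 0.

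ATF3, a stress-induced bZIP factor that lies downstream of ATF4 (ENSG00000162772, chr1:212565334-212620777, plus strand), was low in both genotypes. It had 1.98, 1.73 and 1.88 FPKM in KO, against 3.41, 3.004 and 3.41 FPKM in WT, from 120 to 137 reads in KO and 202 to 233 reads in WT. No KO library reached the lowest WT library. The log2 fold change was -0.58 ± 0.08 (SE), with an adjusted p of 0.00129 by limma, and the ratio of means was 0.568. Its neighbours FAM71A and AL590648.2 were at 0 in all libraries.

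Of the C/EBP partners, CEBPG was called and CEBPB was not. CEBPG, a C/EBP protein without a strong activation domain that pairs with ATF4 (ENSG00000153879, chr19:33373330-33382686, plus strand), was at 6.50, 6.34 and 5.86 FPKM in KO, against 10.8, 11.7 and 10.4 FPKM in WT. The groups were apart, with means of 6.23 ± 0.33 FPKM in KO and 10.95 ± 0.70 FPKM in WT, and the log2 fold change was -0.72 ± 0.07 (SE), with an adjusted p of 0.000317 by limma. CEBPB, an activator with roles in inflammation and differentiation (ENSG00000172216, chr20:50190734-50192689, plus strand), was at 71.7, 69.6 and 83.4 FPKM in KO and at 73.4, 82.9 and 79.6 FPKM in WT. It was the only gene of the set whose groups overlapped, since the highest of all 6 libraries was a KO library. Its means of 74.9 ± 7.5 FPKM in KO and 78.6 ± 4.8 FPKM in WT differed by a log2 fold change of -0.07 ± 0.09 (SE), with an adjusted p of 0.539 by limma, and it passed the test under none of 15 alternative settings (adjusted p 0.0771 to 0.886). With the GC and length correction the log2 fold change of CEBPB was -0.30 (limma adjusted p = 0.0771), the same direction as that of CEBPG. CEBPB-AS1, on the opposite strand over 11.8% of its exonic bases, averaged 0.139 FPKM in KO and 0.173 FPKM in WT. PEPD, 4264 bases from CEBPG, averaged 24.6 FPKM in KO and 27.0 FPKM in WT (limma adjusted p = 0.139).

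PPP1R15A, the stress-induced phosphatase subunit GADD34 that closes the feedback on eIF2-alpha (ENSG00000087074, chr19:48872392-48876057, plus strand), had 12.7, 12.8 and 11.5 FPKM in KO, against 28.7, 24.1 and 27.8 FPKM in WT. All KO libraries lay under all WT libraries, and the means of 12.3 ± 0.7 FPKM in KO and 26.9 ± 2.4 FPKM in WT gave a ratio of 0.459. The log2 fold change was -1.06 ± 0.08 (SE), with an adjusted p of 0.000149 by limma, and 1.24% of tested genes had a lower one. Its neighbours PLEKHA4 and TULP2 were both under 1 FPKM on average, at 0.761 and 0.017 FPKM in KO and 0.579 and 0.018 FPKM in WT.

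CHAC1, the glutathione-degrading enzyme (ENSG00000128965, chr15:40952962-40956519, plus strand), had the lowest log2 fold change of the set and the widest relative spread of the genes tested in KO. It was at 0.51, 1.27 and 0.56 FPKM in KO, from 18, 45 and 19 reads, against 5.03, 4.85 and 6.51 FPKM in WT, from 175, 166 and 223 reads. The second KO library stood above the other KO libraries but well below every WT library. The means were 0.78 ± 0.43 FPKM in KO and 5.46 ± 0.92 FPKM in WT, 7.01-fold lower in KO, and the coefficient of variation was 54.8% in KO and 16.8% in WT. The log2 fold change was -1.88 ± 0.18 (SE), with an adjusted p of 0.00031 by limma. It was -2.07 without the second KO library (adjusted p = 0.000369) and -2.75 with a pseudocount of 0.1. ISCA1P4, the pseudogene next to it, had 0 reads in KO and 3 reads in 1 WT library.

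TRIB3, a pseudokinase that binds ATF4 and CHOP and restrains them (ENSG00000101255, chr20:362835-397559, plus strand), was at 39.5, 39.3 and 41.8 FPKM in KO and at 43.2, 47.4 and 46.1 FPKM in WT. The groups did not overlap, but the distance between the highest KO and the lowest WT library was small. Its means of 40.2 ± 1.3 FPKM in KO and 45.6 ± 2.1 FPKM in WT gave a ratio of 0.882 and a log2 fold change of -0.18 (SE 0.06), which missed the threshold (limma adjusted p = 0.0524). The call depended on the scaling: TRIB3 passed as lower in KO with quantile normalization (-0.24, adjusted p = 0.0131), with limma-voom on recovered reads (-0.21, adjusted p = 0.0193) and with a correction for GC content and length, alone (-0.40, adjusted p = 0.00634) or with a replicate block (adjusted p = 0.0256). NRSN2, which ends 3175 bases upstream of TRIB3 on the same strand, was at 1.45, 1.43 and 1.25 FPKM in KO, against 4.74, 5.22 and 5.68 FPKM in WT, with a log2 fold change of -1.38 (limma adjusted p = 5.16e-05).

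NUPR1, a small stress-induced chromatin regulator (ENSG00000176046, chr16:28532708-28539174, minus strand), was under the filter and entered no test. It was at 0.48, 0.35 and 0.17 FPKM in KO, from 47, 34 and 16 reads, and at 1.0, 0.93 and 1.03 FPKM in WT, from 96, 88 and 97 reads. The KO libraries were all below the WT libraries and varied more among themselves, with a coefficient of variation of 47.1% in KO and 5.01% in WT. In a separate fit with no filter its log2 fold change was -0.58 (limma adjusted p = 0.0228).

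**Figure D2:**
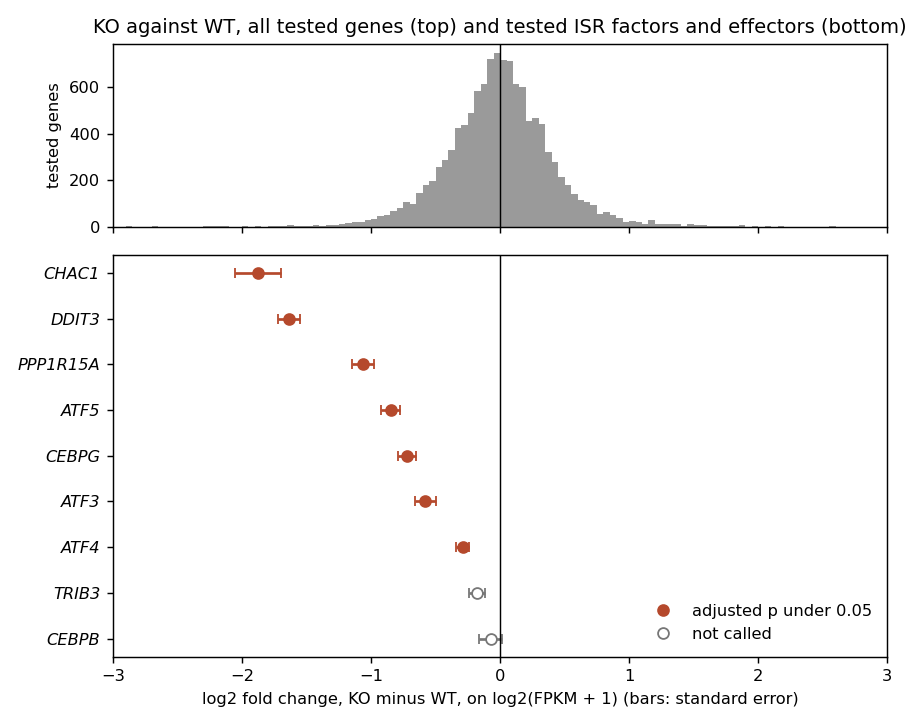
Log2 fold change, KO minus WT on log2(FPKM + 1), of all tested genes from -3 to 3 (top, histogram, number of genes) and of the 9 tested integrated stress response genes (bottom, points with standard errors, filled where the adjusted p was under 0.05). All tested genes centre near 0, while the set runs from -1.88 for CHAC1 to -0.07 for CEBPB, with TRIB3 and CEBPB as the open points.

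The plot of log2 fold changes shows a set that differed more in size than in direction. The most abundant genes, ATF4, CEBPB and TRIB3, had the smallest differences, and the pseudocount makes the log2 scale understate the larger ones of low genes such as CHAC1 and NUPR1. FPKM here are scaled by the length of all annotated exons of a gene, not of the transcript present, so orders across genes are approximate. By mean FPKM the order in KO was ATF4, CEBPB, TRIB3, PPP1R15A, CEBPG, ATF5, DDIT3, ATF3, CHAC1 and NUPR1. In WT it was the same except that ATF5 came before CEBPG and CHAC1 before ATF3. Among neighbours in these orders, only the libraries of ATF5 and CEBPG overlapped, in both genotypes. The exchange of ATF3 and CHAC1 placed ATF3 at 1.86 FPKM and CHAC1 at 0.78 FPKM in KO, against 3.27 FPKM for ATF3 and 5.46 FPKM for CHAC1 in WT. Within KO, the first library was the highest for 4 genes and the lowest for 2, the second the highest for 3 and the lowest for 5, and the third the highest for 3 and the lowest for 3. Within WT, the first library was the highest for 3 genes and the lowest for 3, the second the highest for 3 and the lowest for 6, and the third the highest for 4 and the lowest for 1. Tested genes within 5 Mb of each of the 10 had median log2 fold changes between -0.21 (around ATF3) and 0.22 (around ATF5).

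A list of genes that feed the pathway held the kinases of eIF2-alpha, their activators and inhibitors (GCN1, DELE1, OMA1, DNAJC3, NCK1 and IMPACT), eIF2 and eIF2B subunits, other factors that deliver initiator tRNA or recycle ribosomes (EIF2A, EIF2D, MCTS1 and DENR) and phosphatase subunits. Of the 26 tested, 7 fell, 7 rose and 12 did not pass, with a median log2 fold change of -0.00. Over all 12000 tested genes 22.4% were called lower and 21.0% higher, so both counts lay near those shares. The same shares apply to the list counts below. The median was -0.16 for the 4 kinases and 0.13 for the 8 eIF2 and eIF2B subunits. The number called higher was 4 without the second KO, the third KO or the first WT library, and with the GC and length correction 9 were called higher and 4 lower, with DENR, EIF2AK2 and PPP1CB no longer called. EIF2AK1, the heme-regulated kinase HRI, was at 40.3, 44.5 and 48.2 FPKM in KO, against 28.1, 32.3 and 27.9 FPKM in WT. It was the only kinase that rose, with a log2 fold change of 0.57 ± 0.09 (SE), with an adjusted p of 0.00225 by limma. The gene lies on chromosome 7, where the 56 other tested genes within 5 Mb had a median log2 fold change of 0.40, and the part of that region in its difference was not tested. EIF2AK2, the double-stranded RNA kinase PKR, was at 6.44, 6.82 and 7.33 FPKM in KO, against 9.21, 9.60 and 8.48 FPKM in WT (log2 fold change -0.36, limma adjusted p = 0.00649). With the GC and length correction its log2 fold change was -0.06 (adjusted p = 0.375).

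EIF2AK3, the endoplasmic reticulum kinase PERK, was at 1.52, 2.001 and 1.67 FPKM in KO, against 2.28, 2.63 and 2.61 FPKM in WT. The groups were apart, and its log2 fold change was -0.36 (limma adjusted p = 0.0184). The call was lost without the first KO library (-0.31, adjusted p = 0.0593), the third KO library (-0.35, adjusted p = 0.0532) or the second WT library (-0.34, adjusted p = 0.0521). The same happened with no filter (adjusted p = 0.0567) and with a replicate block plus the GC and length correction (adjusted p = 0.0556). EIF2AK4, the amino acid sensor GCN2, had overlapping groups, with means of 13.0 ± 0.6 FPKM in KO and 12.6 ± 0.8 FPKM in WT (limma adjusted p = 0.641). EIF2S1, which encodes eIF2-alpha, also overlapped, at 32.3 ± 3.4 FPKM in KO and 36.8 ± 3.3 FPKM in WT (limma adjusted p = 0.177). Phosphorylation of eIF2-alpha was not measured.

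**Figure D3:**
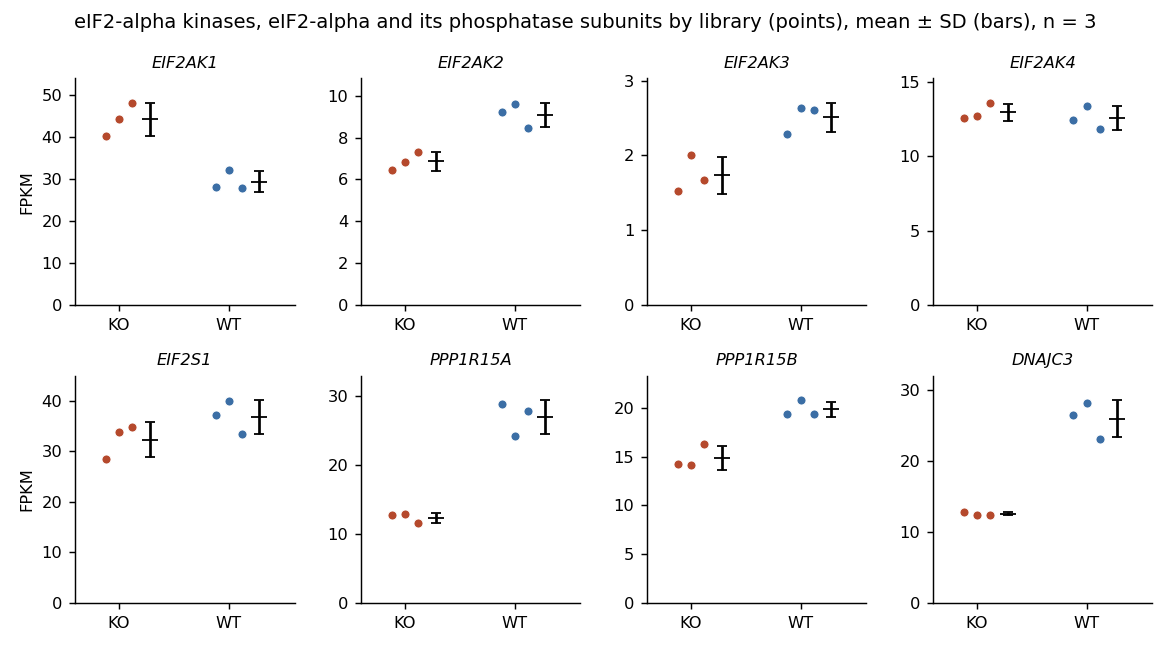
FPKM (vertical axis, from 0, a separate scale per gene) of the 4 eIF2-alpha kinases, EIF2S1, both PPP1R15 phosphatase subunits and DNAJC3 in the 3 KO (left, red) and 3 WT (right, blue) libraries, with mean ± SD. EIF2AK1 is higher in KO, EIF2AK4 and EIF2S1 overlap, and the other genes are lower in KO.

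The plot of pathway inputs also shows PPP1R15B and DNAJC3 beside PPP1R15A. PPP1R15B, the constitutive counterpart of PPP1R15A, was at 14.2, 14.1 and 16.3 FPKM in KO, against 19.4, 20.8 and 19.3 FPKM in WT (log2 fold change -0.40, limma adjusted p = 0.00465). DNAJC3, a chaperone known as an inhibitor of these kinases, was at 12.8, 12.4 and 12.5 FPKM in KO, against 26.5, 28.3 and 23.1 FPKM in WT (log2 fold change -0.99, limma adjusted p = 0.000172). Both genes fell with no overlap between groups. The catalytic subunits of the phosphatase differed, with PPP1CA higher at 72.8 FPKM in KO, against 54.8 FPKM in WT (limma adjusted p = 0.006), PPP1CB lower at 20.1 FPKM in KO, against 25.3 FPKM in WT (limma adjusted p = 0.0362), and PPP1CC not called. The call of PPP1CB was lost when any 1 KO library, or the first or second WT library, was left out (adjusted p 0.0502 to 0.12), and with the GC and length correction its log2 fold change turned to 0.06 (adjusted p = 0.342). NCK1 and IMPACT, which act on the kinases, were not called, at 7.36 and 8.02 FPKM in KO and 8.27 and 8.23 FPKM in WT, but both were called higher after that correction, with a log2 fold change of 0.23 for NCK1 (adjusted p = 0.0132) and of 0.28 for IMPACT (adjusted p = 0.0115). Of the 8 eIF2 and eIF2B subunits, 4 rose (EIF2B2, EIF2B4, EIF2B5 and EIF2S3), 1 fell (EIF2S2) and 3 did not pass. Without the second KO, the third KO or the first WT library, EIF2B5 and EIF2S3 lost their calls (adjusted p 0.0561 to 0.0899), and EIF2S3 did so without the third WT library too (0.0587). EIF2S2 lost its call without the second KO library (limma adjusted p at most 0.0519). EIF2B2, a subunit of the exchange factor that phosphorylated eIF2 blocks, averaged 12.6 FPKM in KO and 9.15 FPKM in WT.

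Of the 10 genes' paralogs, 7 were tested, and 2 fell, 2 rose and 3 did not pass, with a median log2 fold change of -0.13. These counts lay near the shares over all tested genes, 22.4% lower and 21.0% higher. TRIB2, the pseudokinase related to TRIB3, rose, at 8.64, 7.60 and 8.35 FPKM in KO, against 3.52, 3.13 and 3.67 FPKM in WT (log2 fold change 1.05, limma adjusted p = 0.000114). CEBPD, related to CEBPB, rose to 10.4 FPKM in KO, against 7.13 FPKM in WT, but its log2 fold change of 0.48 became 0.23 with the GC and length correction and was no longer called (adjusted p = 0.0843). CHAC2, which also degrades glutathione and is not a stress-induced gene as CHAC1 is, fell to 8.64 FPKM in KO, against 11.7 FPKM in WT (log2 fold change -0.40, limma adjusted p = 0.0087). With the GC and length correction its log2 fold change was -0.08, and the call was lost (adjusted p = 0.319). The remaining call is that of PPP1R15B. With that correction, TRIB2 was the 1 paralog called higher, and the 3 called lower were PPP1R15B, ATF6B and CEBPA.

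Among known targets of ATF4 outside the set, 43 of 47 passed the filter, and 25 fell, 7 rose and 11 did not pass, with a median log2 fold change of -0.37. Without the second KO library or the first WT library, 22 were called lower and 4 higher. With a replicate block, 21 were called lower and 4 higher. TARS and PYCR1, counted among those that fell, lost their calls when any KO library was left out. With the GC and length correction, 28 were called lower and 6 higher. Amino acid transporters had 6 of 9 called lower and 2 higher, with a median of -0.70. SLC7A11, the cystine transporter that feeds glutathione synthesis, was at 1.93, 1.59 and 2.13 FPKM in KO, against 13.1, 13.4 and 11.2 FPKM in WT (log2 fold change -2.24, limma adjusted p = 1.54e-05). SLC3A2, the heavy chain of the same transporter, averaged 25.7 ± 0.9 FPKM in KO and 60.4 ± 4.1 FPKM in WT, and SLC7A5, which pairs with SLC3A2 to import large neutral amino acids, averaged 60.3 ± 1.8 FPKM in KO and 184.7 ± 21.1 FPKM in WT. All 3 fell with no overlap between groups. SLC7A1 and SLC43A1 were the 2 transporters called higher, at 49.1 and 8.68 FPKM in KO and 41.9 and 6.63 FPKM in WT. SLC7A1 lost its call without the second KO, the third KO or the first WT library (adjusted p 0.0565 to 0.0878).

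Genes of amino acid and one-carbon synthesis had 7 of 9 tested members called lower and 0 higher, with a median of -0.42. PHGDH and PSAT1, the first enzymes of serine synthesis, averaged 7.13 and 72.2 FPKM in KO and 15.5 and 154.5 FPKM in WT. ASNS, asparagine synthetase and a much used readout of ATF4, was under the filter, at 0.24 FPKM in KO and 0.73 FPKM in WT on average, with no overlap between groups. Of 13 genes for tRNA charging and export, 6 fell, 1 rose (CARS) and 6 did not pass, with a median of -0.19. AARS averaged 34.4 FPKM in KO and 63.7 FPKM in WT. SLC7A5, AARS, GPT2 and HERPUD1 lie on chromosome 16, as does ADGRG1, the gene knocked out (chr16:57610652-57665580). On this chromosome, 240 tested genes that start above 40 Mb, ADGRG1 among them, had a median log2 fold change of -0.28. The part of that region in the differences of SLC7A5, AARS, GPT2 and HERPUD1 was not tested.

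Secreted and regulatory targets went both ways, with 6 of 12 lower, 4 higher and 2 not called. DDIT4, an inhibitor of mTORC1 also named REDD1, was at 47.8, 44.1 and 49.5 FPKM in KO, against 15.4, 15.8 and 18.0 FPKM in WT (log2 fold change 1.47, limma adjusted p = 3.18e-05). It rose with no overlap between groups, in the opposite direction to the 7 called transcription factors and effectors. The other 3 that rose were KLHL24, VEGFA and GDF15, a secreted stress cytokine. The call of VEGFA, a blood vessel growth factor, was lost without the first or second KO or the first or second WT library (adjusted p 0.0884 to 0.111). GDF15 averaged 159.0 FPKM in KO and 136.2 FPKM in WT (log2 fold change 0.22, limma adjusted p = 0.0322), and the call was lost without the first or second WT library or any of the 3 KO libraries (adjusted p 0.0575 to 0.128). With quantile normalization its adjusted p was 0.0776, and with the GC and length correction its log2 fold change was 0.00 (adjusted p = 0.972). FGF21 was at 0 in all libraries.

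**Figure D4:**
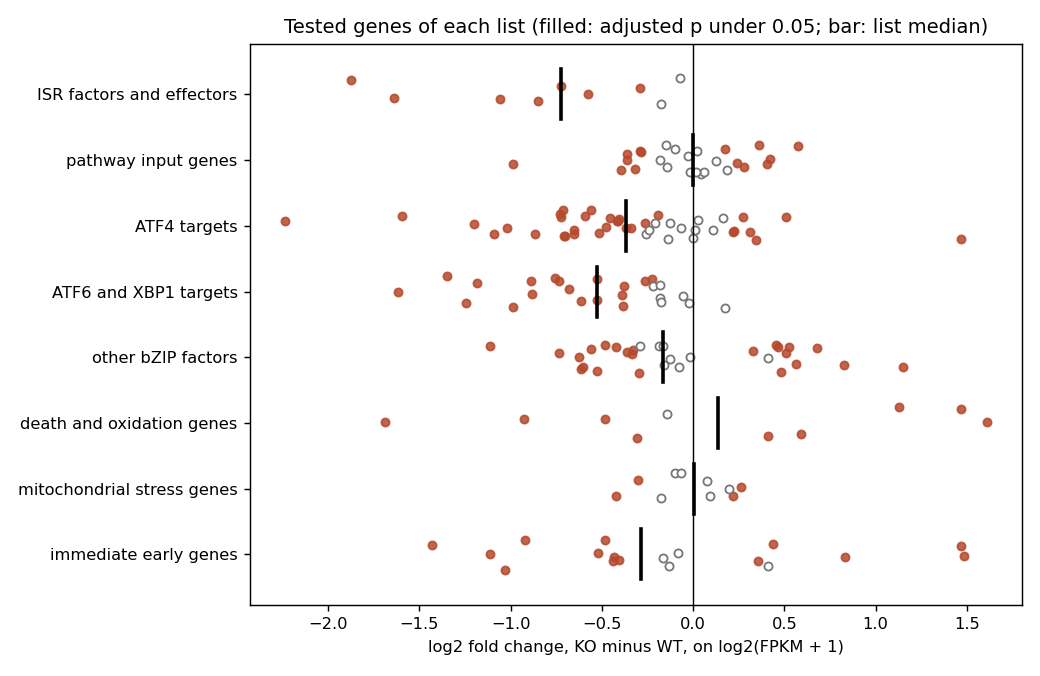
Log2 fold change, KO minus WT on log2(FPKM + 1) (horizontal axis), of the tested genes of 8 lists (points, filled where the adjusted p was under 0.05) with each list's median (black bar). The median is -0.72 for the integrated stress response factors and effectors, -0.53 for ATF6 and XBP1 targets, -0.37 for ATF4 targets and -0.00 for the 26 pathway input genes.

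ATF6 and XBP1 drive the other branches of the unfolded protein response, and their targets in the plot of gene lists had 18 of 25 called lower, 0 higher and 7 not called, with a median of -0.53. Without the third WT library 1 was called higher. With the GC and length correction, 19 were called lower and 0 higher. HSPA5, the chaperone BiP, averaged 232.2 ± 11.4 FPKM in KO and 593.4 ± 17.7 FPKM in WT. HERPUD1, a factor of endoplasmic reticulum protein degradation, averaged 9.57 ± 0.57 FPKM in KO and 31.5 ± 3.3 FPKM in WT. HSP90B1 and DNAJB11, chaperones of the same compartment, averaged 160.2 and 11.2 FPKM in KO and 381.4 and 21.5 FPKM in WT. All 4 fell with no overlap between groups. XBP1 and ATF6 fell as well, to 20.9 and 10.2 FPKM in KO, against 30.5 and 13.1 FPKM in WT.

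Genes known downstream of CHOP or as death effectors went both ways, with 4 of 10 lower (PMAIP1, ERO1B, BCL2 and CASP4), 5 higher (TXNIP, DDIT4, TNFRSF10B, BBC3 and BCL2L11) and ERO1A not called. The call of CASP4 was lost without the second KO library (adjusted p = 0.0681), and its log2 fold change of -0.31 became -0.02 with the GC and length correction (adjusted p = 0.874). PMAIP1, which encodes the BH3-only protein NOXA, was at 17.5, 14.3 and 16.4 FPKM in KO, against 55.8, 55.1 and 50.8 FPKM in WT (log2 fold change -1.69, limma adjusted p = 2.49e-05). It fell to a degree near that of DDIT3. TNFRSF10B, the death receptor DR5, rose to 144.0 FPKM in KO, against 95.4 FPKM in WT, and BBC3, which encodes PUMA, to 24.3 FPKM in KO, against 10.7 FPKM in WT. TXNIP, an inhibitor of thioredoxin, rose to 5.28 FPKM in KO, against 1.05 FPKM in WT.

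Other bZIP factors that can pair with the set had 13 of 31 called lower, 10 higher and 8 not called, with a median log2 fold change of -0.17. With the GC and length correction, 16 were called lower and 8 higher. FOSL1, a FOS-like factor, averaged 116.6 FPKM in KO and 253.1 FPKM in WT, and CREB3L2, a membrane-bound factor, averaged 9.64 FPKM in KO and 15.1 FPKM in WT. DBP, a circadian bZIP factor, rose to 2.27 FPKM in KO, against 0.472 FPKM in WT. Of 18 tested immediate early genes, a class that includes ATF3 in many cells, 9 fell, 5 rose and 4 did not pass, with a median of -0.29. MYC was among those that fell, at 9.42 FPKM in KO and 27.1 FPKM in WT. The 5 that rose were BTG2, KLF4, IER3, IER5 and IER2, and IER2 lost its call with the GC and length correction (adjusted p = 0.12). That correction gave 10 immediate early genes called lower and 4 higher. BTG2, an antiproliferative factor, and KLF4, a zinc finger factor, were at 15.2 and 5.55 FPKM in KO and 4.81 and 1.37 FPKM in WT.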

How the data were processed

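Messenger RNA libraries of HT1080 cells, 3 KO and 3 WT, were compared. The authors deposited 1 table of FPKM values for 58735 genes, per the file headers; identifiers and positions equal human GENCODE 29 on GRCh38, although the submitters' processing notes name GRCm38 and mm10. Aligner, counter and strandedness: not given in the sources used here. FPKM times gene length came within 0.02 of whole reads for 100% of values above 0, which gave the read numbers. The test was limma 3.58.1 in R 4.3.3 (lmFit, eBayes with trend, two-sided) on log2(FPKM + 1), with genotype as the only term. It covered the 12000 genes whose mean reached 1 FPKM, with Benjamini-Hochberg adjustment over all of them and a threshold of 0.05. A check on simulated reads held no GC trend, so it does not bear on calls that such a trend could affect. Fold changes are on the log2(FPKM + 1) scale.

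Alternatives were a pseudocount of 0.1, no filter, a filter at 5, median-ratio scaling, quantile normalization, limma-voom on recovered reads, a loess correction for GC content and length, a replicate block alone and with that correction, and leaving out each library. The genes and lists were chosen with earlier results of these data known, and the lists share members. Named are all 10 genes, ADGRG1, the eIF2-alpha kinases, EIF2S1, PPP1R15B, genes overlapping or within 5000 bases of the 10, the called genes of each list with the lowest adjusted p (at most 4), members of counts of 5 or fewer, and the 5 protein-coding genes (mean at least 5 FPKM) most like ATF4 and most like DDIT3. Named after their values were seen were ASNS, FGF21, AARS, GPT2, PHGDH, PSAT1, TARS, PYCR1, ATF6, ATF6B, CEBPA, PPP1CA, PPP1CB, PPP1CC, NCK1, IMPACT and DENR. Read numbers cover counting error only.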

Additional observations from a re-analysis of the deposited data

How the results depend on the processing

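Of the 10 genes, 7 were called lower and 0 higher in KO at a pseudocount of 0.1, with median-ratio scaling and without any single library; the calls were 8 with no filter (NUPR1 added), quantile normalization, limma-voom or the GC and length correction (TRIB3 added each time), and 5 with a filter at a mean of 5 FPKM, which left 7 of the genes tested. No gene of the set changed direction under any setting. Over all genes, 5207 calls became 3203 with the filter at 5, where 7053 genes were tested, and 3789 to 5372 without single libraries. The labels give both genotypes the same replicate numbers. Deviations of same-numbered libraries correlated at -0.07, -0.18 and -0.35, and no library matched its own number best. These values show no sign of pairing, but with 3 libraries per genotype they cannot exclude it. A replicate block gave 3866 calls over all genes and 7 lower in the set, and with the GC and length correction 4182 and 8. The share of calls that were lower was 51.5%, and 56.6% with limma-voom. Of 270 recomputed counts over the gene lists, 232 stayed within 1.5 times. With the filter at 5, other bZIP factors had 6 called higher (10 before) and death effectors 1 lower (4) and 3 higher (5); pathway inputs had 3 lower (7) with block and GC correction; ATF4 targets had 4 higher (7) with the block and 3 with block and GC correction. At the lowest depths, CHAC1 in KO rested on 18 to 45 reads per library and NUPR1 on 16 to 47, so their folds are less precise than that of ATF4.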

Other observations

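Over the 6 libraries, the protein-coding genes whose log2(FPKM + 1) correlated most with that of ATF4 were ARMCX2 (Pearson r = 0.9997), SDC4, SERPINH1, ISG15 and FUCA2, and with that of DDIT3 PDIA4 (r = 0.9986), HNRNPU, CRIM1, ISG15 and CKAP4. The 6 libraries form 2 genotypes and are not 6 independent points, so these values only rank the genes: of 6627 compared, 623 exceeded 0.95 with ATF4 and 566 with DDIT3. ISG15, an interferon-induced ubiquitin-like protein, averaged 23.2 FPKM in KO and 105.6 FPKM in WT. PDIA4, a disulfide isomerase of the endoplasmic reticulum, averaged 107.5 FPKM in KO and 182.0 FPKM in WT.

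Mitochondrial stress genes had 2 of 10 called lower (HSPE1 and HSPA9), 2 higher (TRAP1 and GDF15) and 6 not called, with a median log2 fold change of 0.00. These counts lay near the shares over all tested genes, 22.4% lower and 21.0% higher. HSPE1, a mitochondrial chaperonin subunit, averaged 22.9 FPKM in KO and 31.0 FPKM in WT, and TRAP1, a mitochondrial chaperone, 29.6 FPKM in KO and 24.5 FPKM in WT. With the GC and length correction TRAP1 (0.13, adjusted p = 0.0741) and GDF15 (0.00, adjusted p = 0.972) lost their calls. The number called higher was 0 without the first WT library and 1 without any of the KO libraries or the second WT library. Of 9 tested ubiquitin ligase adaptors and partners that act on ATF4 or ATF5 protein, 1 was called lower and 0 higher. This was SIRT1, at 4.09 FPKM in KO and 5.43 FPKM in WT (limma adjusted p = 0.0244), and the call was lost in 8 of 14 alternatives, the GC and length correction among them (adjusted p = 0.0994).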
